A study of Homo sapiens with 8 samples.

Results

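The ETS family is a group of transcription factors that share a winged helix DNA-binding domain and recognise a GGAA core in DNA. Most members activate transcription and several repress it, and ERK signaling acts on many of them, so that factors with near-identical sites can compete for the same promoters and enhancers. In prostate and other glandular epithelia the ETS genes *EHF*, *ELF3* and *SPDEF* are known for epithelial differentiation, whereas *ETS1* is better known from motile, vascular and lymphoid cells. ERF is itself an ETS repressor, and CIC is a repressor of another family that is best known for silencing *ETV1*, *ETV4* and *ETV5*.

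The 10 genes described here are the ETS genes *ETS1*, *ETS2*, *EHF*, *ELF3*, *SPDEF*, *ELK3*, *ELF1*, *ETV6*, *ELF4* and *GABPA*, chosen by name from the 28 genes of the family, and they are 10 of the 33791 genes with counts. They lie outside the PEA3 subfamily (*ETV1*, *ETV4* and *ETV5*) and outside the pair of ETS repressors *ERF* and *ETV3*. This choice was made with earlier results of these data known. All 10 had values in the files and 9 passed the filter on low counts. The exception was *SPDEF*.

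RNA-seq was performed on PNT2, a human prostate epithelial line that has been immortalized, in 8 libraries: 2 each (replicates A and B) of parental cells (genotype WT), of a line labelled *ERF* KD, of another labelled *CIC* KO, and of a line whose genotype label is CIC-ERF codeletion, called codeletion libraries here although the line was made with a hairpin and a guide. The study made its lines with a short hairpin RNA against *ERF* under puromycin selection and with a guide RNA against *CIC* under blasticidin selection, with more than a single hairpin and guide in use. Its methods name a single hairpin for the lines with both losses, but no source says which guide those libraries carry, which hairpin or guide a single-loss library carries, whether a line is a clone, or whether replicates are separate cultures, so that p-values measure only the spread between these libraries. No source says that the WT cells carried a control hairpin or guide. *ERF* mRNA was 55.9 and 55.9 library-scaled counts (CPM) in WT, 81.2 and 77.8 in the *ERF* KD-labelled libraries, 18.8 and 11.7 in the *CIC* KO-labelled ones, and 11.6 and 10.4 in the codeletion libraries. Low *ERF* mRNA thus went with the *CIC* KO label rather than with the *ERF* KD label, and the names of these 4 deposited files carry the opposite letters to their labels. *CIC* mRNA, which a guide's edit need not lower, was 128 and 129 CPM in WT, 108 and 109 in the *ERF* KD-labelled libraries, 132 and 131 in the *CIC* KO-labelled ones, and 90.9 and 66.4 in the codeletion libraries. The groups keep their labels here, and each direction drawn from a single-loss group rests on labels that *ERF* mRNA contradicts.

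Expression is given as CPM scaled by TMM normalization when a gene is compared between libraries, and as relative transcript abundance (TPM), which corrects for transcript length, when genes are compared with each other. Log2 fold changes with a standard error (SE) and an adjusted p are from edgeR's quasi-likelihood test, fitted to all 8 libraries over 14653 genes with Benjamini-Hochberg adjustment, and a gene is called at an adjusted p under 0.05. Library totals ran from 19477473 to 25813157 estimated counts. Epithelial markers (*KRT8*, *KRT18*, *KRT5*, *KRT14*, *EPCAM* and *CDH1*) were detected in each group, with a summed level of 3076 to 3693 CPM in WT, 1301 to 1586 in the *ERF* KD-labelled libraries, 3212 to 4273 in the *CIC* KO-labelled ones and 3240 to 4117 in the codeletion libraries. *KLK3*, a marker of prostate luminal cells, had no count in any library. The summed level over 5 leukocyte markers was at most 10.8 CPM in any library, over 5 endothelial markers at most 68.7 and over 5 stromal markers at most 112. In bulk RNA, fewer cells with a transcript and less of it per cell cannot be told apart.

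Promoter sequence was examined first, since the genes targeted in these lines, *ERF* and *CIC*, encode DNA-binding repressors. RefSeq (GRCh38.p14) gave 16 promoters for 9 of the 10 genes, each with 250 bases before the start and 50 after it. The exception was *ETS1*. Motifs were searched on both strands in these and in all 35116 promoters of that length. A CIC octamer (TGAATGAA, TGAATAAA, TCAATGAA or TCAATAAA) was in 4.52% of all promoters and in 1 of the 16, that of *SPDEF*. The octamer TGAATGGA, which the study used for CIC, was in 1.03% of all promoters and in 0 of the 16. The ETS site CCGGAAGT, which contains the GGAA core, was in 4.14% of all promoters and in 1 of the 16, that of *GABPA*. The core GGAA alone was in 95.5% of all promoters and in 14 of the 16. The E-box CAGGTG, which repressors of the SNAIL and ZEB families recognise, was in 20.6% of all promoters and in 3 of the 16, those of *ELF3*, *ETS2* and *ELF4*. The 5 stretches of 30 bases that hold these longer matches follow, 5′ to 3′ on the strand of the gene with the match in capitals, so that the letters behind each count can be read.
GABPA, CCGGAAGT on the opposite strand, chr21:25734894-25734923: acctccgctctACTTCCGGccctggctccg
SPDEF, TGAATGAA, chr6:34556480-34556509: gaatgagcgagTGAATGAAtgagtccccta
ELF3, CAGGTG on the opposite strand, chr1:202010455-202010484: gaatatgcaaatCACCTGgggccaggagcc
ETS2, CAGGTG on the opposite strand, chr21:38805047-38805076: aggttcagttccCACCTGtgtaaagtggga
ELF4, CAGGTG on the opposite strand, chrX:130110704-130110733: gcgccgccgtctCACCTGgtatttgcatct
A match gives the letters only. These short windows leave out enhancers and other start sites.

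In WT, *ETS2* was the most abundant of all 28 ETS genes and *ELF3* came next when all annotated transcripts were summed. By mean TPM the order of the 10 was *ETS2* at 111 ± 7.77, *ELF3* at 89.1 ± 20.5, *ELF1* at 60.6 ± 2.81, *ETS1* at 34.2 ± 5.67, *ELK3* at 21.6 ± 4.66, *ELF4* at 20.3 ± 0.861, *GABPA* at 16.6 ± 1.51, *ETV6* at 7.83 ± 0.326, *EHF* at 5.62 ± 2.74 and *SPDEF* at 0.0443 (SD, n = 2 each). The libraries of neighbours in this order did not overlap, except those of *ELK3* and *ELF4*. Other members of the family fell between them, with *ERF* in the third place at 64.9 TPM. *SPDEF* was 25th of the 28. The place of *ELF3* depends on its transcripts that do not code for protein: its coding TPM in WT was 52.6 and 42.7, below the 62.6 and 58.7 of *ELF1*.

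The order differed between groups. In the *ERF* KD-labelled libraries, *ELF3* went from the second to the sixth place of the 10, at 18.1 ± 16.2 TPM, and its range of 6.63 to 29.5 overlapped those of its neighbours *ELF4* and *GABPA*. *ETS1* came second there, at 46.3 ± 4.35 TPM, with a range that overlapped that of *ELF1*. In both groups with low *ERF* mRNA, *ELF3* came first, at 98.0 ± 38.5 TPM in the *CIC* KO-labelled libraries and 129 ± 24.7 in the codeletion libraries, with a range that overlapped that of *ETS2* in each. By coding transcripts *ETS2* was above *ELF3* in every library of both groups, with 70.7 and 77.3 TPM against 68.8 and 39.2 in the *CIC* KO-labelled libraries and 127.5 and 91.7 against 85.7 and 71.0 in the codeletion libraries.

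Summed over the 10 genes, the level was 369 and 364 TPM in WT, 251 and 228 in the *ERF* KD-labelled libraries, 345 and 302 in the *CIC* KO-labelled ones, and 449 and 353 in the codeletion libraries. The sum over all 28 ETS genes was 567 and 555 TPM in WT and 564 and 521 in the *ERF* KD-labelled libraries. The 10 genes therefore made up 65.1% and 65.7% of the ETS total in WT but 44.5% and 43.8% in the *ERF* KD-labelled libraries. Their share was 67.1% and 67.6% in the *CIC* KO-labelled libraries and 66.7% and 64.6% in the codeletion libraries. The PEA3 genes took 6.85% and 8.23% of the ETS total in WT, 27.3% and 21.6% in the *ERF* KD-labelled libraries, 8.65% and 11.8% in the *CIC* KO-labelled ones, and 13.8% and 17.0% in the codeletion libraries. A share falls when another gene of the sum rises, so these shares describe the balance within the family and not the change of a gene.

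**Figure D1:**
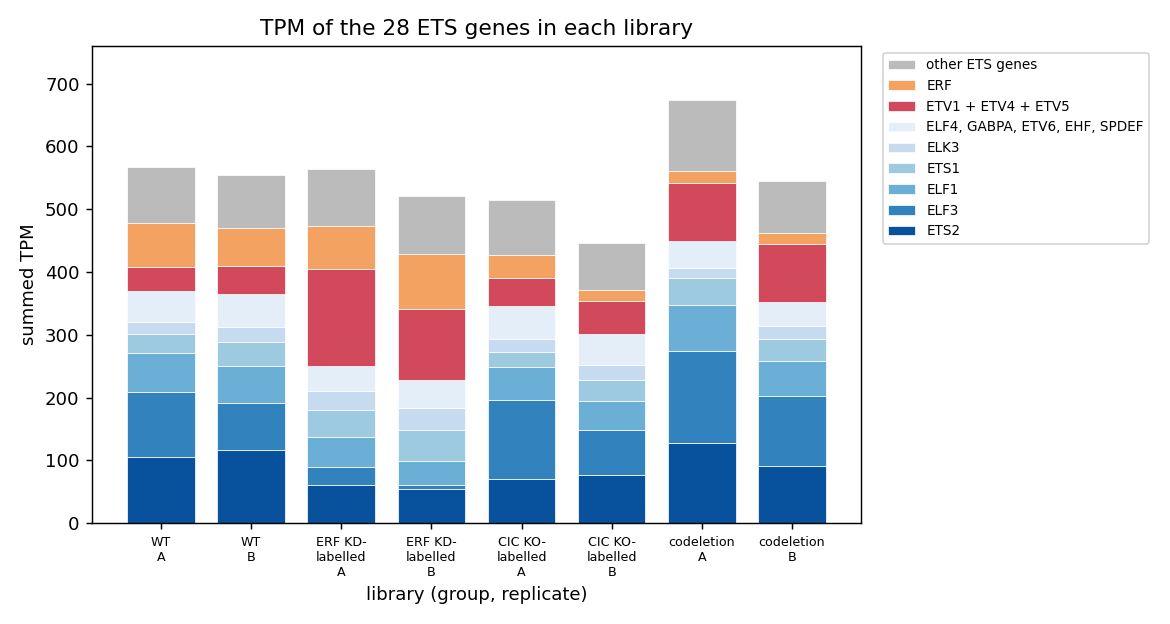
Stacked bars of TPM for the 28 ETS genes in each of the 8 libraries (x axis, group and replicate), with the 10 genes described here in blue and *ETV1*, *ETV4* and *ETV5* together in red. The blue part reaches 369 and 364 TPM in WT and 251 and 228 in the *ERF* KD-labelled libraries, where the red part is tallest.

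The lines were compared with WT to see which of these ETS genes differ when *ERF*, *CIC* or both are lost. In the *ERF* KD-labelled libraries, 4 of the 9 genes tested were called by edgeR, all lower (*EHF*, *ELF3*, *ETS2* and *ELF1*), while 10.1% of all genes tested were called in that comparison. DESeq2 called 5 of the 9 there, these 4 lower and *ELK3* higher, and 2000 of all genes. In the *CIC* KO-labelled libraries, 0 of the 9 were called by edgeR, as for 0% of all genes, with 1 of the 9 at an unadjusted p under 0.05 and 0 called by DESeq2 (0.159% of all genes). In the codeletion libraries, 0 of the 9 were called by edgeR, where 0.0682% of all genes were, with 1 of the 9 at an unadjusted p under 0.05 and 1, *EHF*, called by DESeq2 (2.44% of all genes). Of all 14653 genes, 587 and 1950 had an unadjusted p under 0.05 in the *CIC* KO-labelled and codeletion libraries, in that order. In a fit with a block for the replicate letter, the counts in these 3 comparisons were 6, 0 and 1, against 18.2%, 0.00682% and 2.49% of all genes. Of the 6, 4 were lower and 2, *ETS1* and *ELK3*, were higher. The median log2 fold change of the 9 was -0.40, -0.09 and 0.01 in these 3 comparisons, against 0.01, 0.01 and 0.00 over all genes. The 3 comparisons share the WT libraries.

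**Figure D2:**
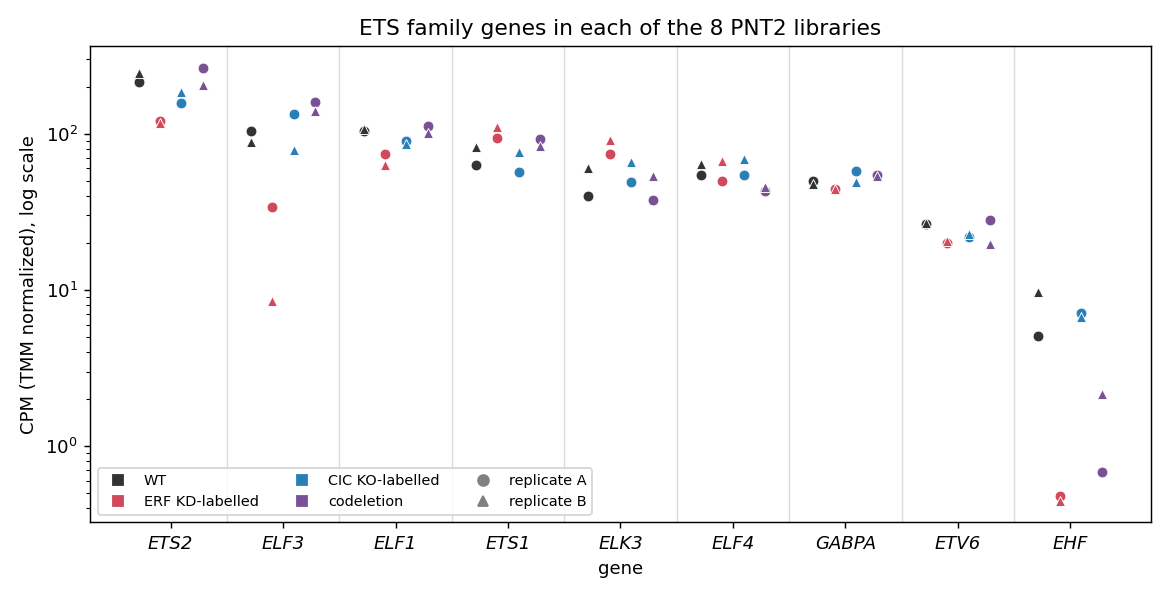
CPM of 9 ETS genes (log scale) in each library, coloured by group, with circles for replicate A and triangles for replicate B. The *ERF* KD-labelled libraries lie lowest for *ETS2*, *ELF3*, *ELF1* and *EHF* and highest for *ETS1* and *ELK3*, and *EHF* is also low in the codeletion libraries; *SPDEF* is left out because it had at most 3 counts.

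Of the epithelial ETS factors, *EHF* (chr11:34621093-34661057, plus strand) had the largest change. EHF is known for holding glandular epithelium in its differentiated state. Its level was 5.03 and 9.64 CPM in WT, 0.480 and 0.447 in the *ERF* KD-labelled libraries, 7.07 and 6.74 in the *CIC* KO-labelled ones, and 0.677 and 2.14 in the codeletion libraries. Both *ERF* KD-labelled libraries and both codeletion libraries lay below every library of the other 2 groups. In estimated counts *EHF* had 106 and 189 in WT but 10 and 9 in the *ERF* KD-labelled libraries and 16 and 38 in the codeletion libraries, so that its lowest levels rest on few reads.

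Compared to WT, *EHF* fell by 3.97 on the log2 scale in the *ERF* KD-labelled libraries (SE 0.600, adjusted p = 0.00511). It stayed called with each library left out in turn, with log2 fold changes between -4.36 (WT replicate A left out) and -3.42 (WT replicate B left out). Its log2 fold change in the codeletion libraries was -2.40 (SE 0.537), not called (adjusted p = 0.122, unadjusted p = 0.00191). With a block for the replicate letter the value was -2.43 (adjusted p = 0.0326), and it ran from -3.42 without codeletion replicate B to -1.77 without its replicate A. In the *CIC* KO-labelled libraries the log2 fold change was -0.09 (95% interval -1.21 to 1.03, adjusted p = 1.0).

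*ELF3* (chr1:202007945-202017188, plus strand) encodes an ETS activator of epithelial differentiation and of inflammatory genes. Its level was 105 and 88.7 CPM in WT, 33.9 and 8.49 in the *ERF* KD-labelled libraries, 134 and 78.7 in the *CIC* KO-labelled ones, and 160 and 140 in the codeletion libraries. The *ERF* KD-labelled libraries were below all others but differed from each other more than those of any other group, by 1.98 on the log2 scale. Compared to WT, *ELF3* fell by 2.19 in them (SE 0.534, adjusted p = 0.0378). The value was -3.50 without *ERF* KD replicate A and -1.51 without its replicate B, both still called, and the call was lost without WT replicate A (adjusted p = 0.135), WT replicate B (0.0908), codeletion replicate A (0.0674) or its replicate B (0.0689), and in a fit of only the groups compared (0.0741). The 1521 tested genes of chromosome 1, which holds *ELF3*, had a median log2 fold change of -0.11 in this comparison, and their part in the result was not tested.

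*ELF3* did not go the way of *EHF* in the codeletion libraries. Its log2 fold change against WT was 0.63 (SE 0.505, adjusted p = 0.616), with both libraries above both of WT. In the *CIC* KO-labelled libraries it was 0.14 (95% interval -1.02 to 1.29, adjusted p = 1.0), and the libraries overlapped those of WT. *ELF3* shares 664 exonic bases with *ELF3-AS1* on the opposite strand and with *AL691482.3* on its own, and neither has a value here, so reads from them could be counted in *ELF3*. Protein-coding transcripts held between 50.8% and 63.7% of its TPM in the 8 libraries. The share of the main coding transcript, *ELF3-202*, ran from 33.7% to 46.9%, and a processed transcript, *ELF3-206*, held 17.4% to 28.4%.

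*SPDEF* (chr6:34537802-34556333, minus strand), which encodes the prostate-derived ETS factor of secretory luminal cells, was at or below the floor of 3 counts in every library. It had 1 and 1 counts in WT, 1 and 1 in the *ERF* KD-labelled libraries, 0 and 0 in the *CIC* KO-labelled ones, and 3 and 1 in the codeletion libraries. No fold change is given. Its expression was not detectable above that floor at this depth in any group.

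*EHF* and *ELF3* were set beside 14 other regulators of epithelial transcription and splicing, of which 13 were tested. This list, too, was chosen with earlier results of these data known. Its median log2 fold change was -1.90 in the *ERF* KD-labelled libraries against WT. Of all genes 10.1% were called there, and 8 of these 13 were, all lower. They included *OVOL1* (-4.29, SE 0.481, adjusted p = 0.00116), *OVOL2* (-4.26, SE 0.245), *ESRP1* (-4.06, SE 0.195) and *GRHL2* (-3.44, SE 0.153), which act in epithelial identity and epithelial splicing. *EHF* at -3.97 lay between *ESRP1* and *GRHL2*, and *ELF3* was at -2.19. In the codeletion libraries, 0 of the 13 were called by edgeR or DESeq2 and 1 with the replicate block, with 2 at an unadjusted p under 0.05, and the median was 0.02. Over all genes 0.0682% were called there by edgeR, 2.44% by DESeq2 and 2.49% with the block. An unadjusted p under 0.05 was found for 1950 of the 14653 genes tested there. *EHF* at -2.40 stood apart from *OVOL1* (0.07), *OVOL2* (-0.14), *ESRP1* (0.02) and *GRHL2* (0.14) there, whereas *ZNF750*, a regulator of epidermal differentiation, was at -2.43 with a wide error (SE 1.01, adjusted p = 0.357). Whether *EHF* differed from these genes was not tested. Of the 6 epithelial markers, 5 were called lower in the *ERF* KD-labelled libraries, against 10.1% of all genes. In the codeletion libraries edgeR called 0 of the 6 (0.0682% of all genes) and DESeq2 1 (2.44%). Of the 6, 2 had an unadjusted p under 0.05. The log2 fold change there was positive for 3 and negative for 3. *KRT14* had 0.855 and 1.38 CPM in WT, 0.048 and 0.050 in the *ERF* KD-labelled libraries and 0.254 and 0.395 in the codeletion libraries, the last on 6 and 7 estimated counts. The part of a changed share of epithelial-like cells in the levels of *EHF* and *ELF3* was not tested.

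**Figure D3:**
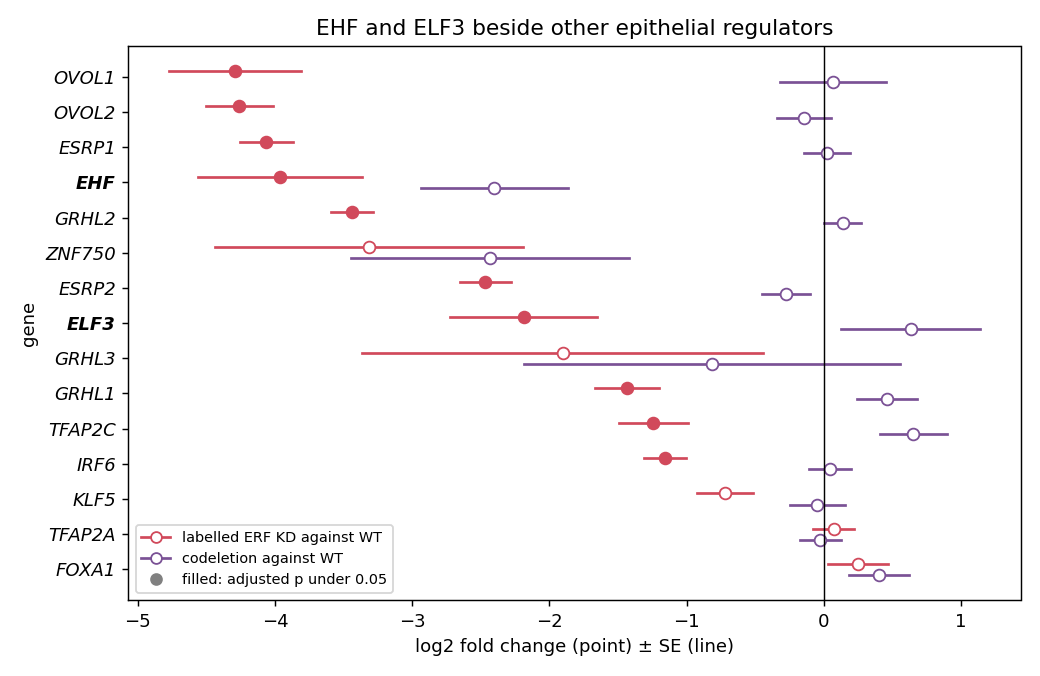
Log2 fold change against WT (x axis, point, with SE as a line) of *EHF* and *ELF3* in bold and of the 13 tested epithelial regulators, in the *ERF* KD-labelled libraries (red) and in the codeletion libraries (purple). *EHF* keeps a value of -2.40 in the codeletion libraries, where *OVOL1*, *OVOL2*, *ESRP1* and *GRHL2* lie between -0.14 and 0.14.

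*ETS2* and *ETS1* are the founding pair of the family, and ERK phosphorylates both. *ETS2* (chr21:38805307-38824955, plus strand) had 213 and 244 CPM in WT, 120 and 118 in the *ERF* KD-labelled libraries, 157 and 185 in the *CIC* KO-labelled ones, and 266 and 204 in the codeletion libraries. Both single-loss groups lay below WT in every library, whereas the codeletion libraries overlapped WT. *ETS2* fell by 0.94 in the *ERF* KD-labelled libraries (SE 0.166, adjusted p = 0.00995). The direction held with each library left out, but the adjusted p was 0.0759 without WT replicate B, 0.0501 without *ERF* KD replicate A and 0.0577 without its replicate B. The log2 fold change was -0.42 in the *CIC* KO-labelled libraries (SE 0.164, unadjusted p = 0.0329, adjusted p = 1.0) and 0.04 in the codeletion libraries (SE 0.164, adjusted p = 0.941). The 143 tested genes of chromosome 21, which holds *ETS2*, had a median log2 fold change of -0.14 in the *ERF* KD-labelled libraries, where 67.1% of them were lower than in WT, 0.09 in the *CIC* KO-labelled ones and 0.13 in the codeletion libraries. The same median was 0.33 between the codeletion and *ERF* KD-labelled libraries. The part of this shift in the values of *ETS2* was not tested.

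*ETS1* (chr11:128458761-128587558, minus strand) went the other way in the *ERF* KD-labelled libraries. It had 62.9 and 81.8 CPM in WT, 94.0 and 111 in those libraries, 56.9 and 76.1 in the *CIC* KO-labelled libraries, and 93.3 and 83.5 in the codeletion libraries. The *ERF* KD-labelled libraries and the codeletion libraries lay above WT, and the *CIC* KO-labelled ones overlapped it. The log2 fold change was 0.50 in the *ERF* KD-labelled libraries (SE 0.191), which was not called (adjusted p = 0.147) but passed with the replicate block (0.51, adjusted p = 0.0497). It was 0.29 in the codeletion libraries (SE 0.191, adjusted p = 0.547) and -0.12 in the *CIC* KO-labelled libraries (SE 0.191, adjusted p = 1.0).

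*ELK3* (chr12:96194382-96269835, plus strand) encodes a ternary complex factor, which binds beside SRF, represses at rest and activates once ERK phosphorylates it. Its level was 39.9 and 60.2 CPM in WT, 74.1 and 90.8 in the *ERF* KD-labelled libraries, 49.5 and 65.6 in the *CIC* KO-labelled ones, and 37.4 and 54.1 in the codeletion libraries. Replicate B was above replicate A in each group, and only the *ERF* KD-labelled libraries lay wholly above WT. The log2 fold change there was 0.72 (SE 0.257), not called by edgeR (adjusted p = 0.123). It was called by DESeq2 (0.72, adjusted p = 0.0465) and with the replicate block (0.74, adjusted p = 0.00338). It was 0.20 in the *CIC* KO-labelled libraries (SE 0.257, adjusted p = 1.0) and -0.13 in the codeletion libraries (SE 0.257, adjusted p = 0.858). *ELK3* shares 209 exonic bases with *AC008149.1* on the opposite strand.

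*ELF1* (chr13:40932028-41061440, minus strand) encodes a broadly expressed ETS activator. It had 104 and 107 CPM in WT, 74.2 and 63.4 in the *ERF* KD-labelled libraries, 89.4 and 85.5 in the *CIC* KO-labelled ones, and 112 and 101 in the codeletion libraries. As with *ETS2*, both single-loss groups were below WT in every library and the codeletion libraries overlapped WT. *ELF1* fell by 0.62 in the *ERF* KD-labelled libraries (SE 0.131, adjusted p = 0.0212), a call that was lost without WT replicate A (adjusted p = 0.115), WT replicate B (0.132) or *ERF* KD replicate B (0.118), on length-scaled counts (-0.50, adjusted p = 0.10), and by limma, with values of -0.53 (adjusted p = 0.128, pseudocount of 1 on TPM) and -0.54 (adjusted p = 0.127, pseudocount of 0.1). The log2 fold change was -0.28 in the *CIC* KO-labelled libraries (95% interval -0.57 to 0.02, adjusted p = 1.0) and 0.01 in the codeletion libraries (95% interval -0.29 to 0.31, adjusted p = 0.981). The 234 tested genes of chromosome 13 had a median log2 fold change of -0.03 in the *ERF* KD-labelled libraries, -0.18 in the *CIC* KO-labelled ones and -0.11 in the codeletion libraries, against 0.01, 0.01 and 0.00 over all genes. *WBP4*, which shares 167 exonic bases with *ELF1* on the opposite strand, had a log2 fold change of -0.03 in the *ERF* KD-labelled libraries (SE 0.156, adjusted p = 0.940).

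Of *ELF4*, *ETV6* and *GABPA*, 0 were called by edgeR, by DESeq2 or with the replicate block in the 7 comparisons made (3 lines against WT, 3 pairs of lines and the interaction), and 1 test, of *ELF4* between the codeletion and *CIC* KO-labelled libraries, had an unadjusted p under 0.05. The share of all genes called by edgeR ran from 0% to 11.7% over the 7 comparisons. DESeq2 called 25 to 2244 of all genes, and the fit with the block 1 to 3014. *ELF4* (chrX:130064874-130110716, minus strand), a relative of *ELF1* known from lymphocytes, had 54.6 and 63.8 CPM in WT, 49.6 and 66.7 in the *ERF* KD-labelled libraries, 54.4 and 69.1 in the *CIC* KO-labelled ones, and 43.3 and 45.6 in the codeletion libraries. Only the codeletion libraries lay wholly below WT, with a log2 fold change of -0.41 (SE 0.186, unadjusted p = 0.0562, adjusted p = 0.387).

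*ETV6* (chr12:11649854-11895402, plus strand) encodes an ETS repressor that carries a pointed domain for self-association. It had 26.5 and 26.9 CPM in WT, 19.8 and 20.5 in the *ERF* KD-labelled libraries, 21.9 and 23.0 in the *CIC* KO-labelled ones, and 28.2 and 19.8 in the codeletion libraries. Both single-loss groups lay below WT, by 0.40 (SE 0.186, adjusted p = 0.227) and 0.25 (SE 0.185, adjusted p = 1.0) on the log2 scale, and neither passed the test.

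*GABPA* (chr21:25734570-25772460, plus strand) encodes the DNA-binding subunit of GABP, which drives many genes of mitochondrial respiration. Among the 9 genes tested it had the smallest ratio of highest to lowest library, with 50.1 and 47.4 CPM in WT, 44.6 and 44.5 in the *ERF* KD-labelled libraries, 57.9 and 48.8 in the *CIC* KO-labelled ones, and 54.8 and 53.7 in the codeletion libraries. The log2 fold changes were -0.13, 0.13 and 0.16 (SE 0.131, 0.130 and 0.130), and the 95% intervals lay between -0.43 and 0.45. Of 13 mitochondrial genes described as GABPA targets, 0 were called by edgeR or DESeq2 in any of the 7 comparisons, with at most 2 at an unadjusted p under 0.05 in a comparison. Over all genes, edgeR called from 0% to 11.7% in a comparison, so that 0 of 13 is no sign of stability. An unadjusted p under 0.05 was found for 587 to 3862 of 14653 genes. With the replicate block 1 of the 13 was called in the *ERF* KD-labelled libraries against WT, where 18.2% of all genes were. *ATP5PF*, which shares 413 exonic bases with *GABPA* on the opposite strand, had a log2 fold change of -0.23 in the *ERF* KD-labelled libraries (SE 0.154, adjusted p = 0.422).

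**Figure D4:**
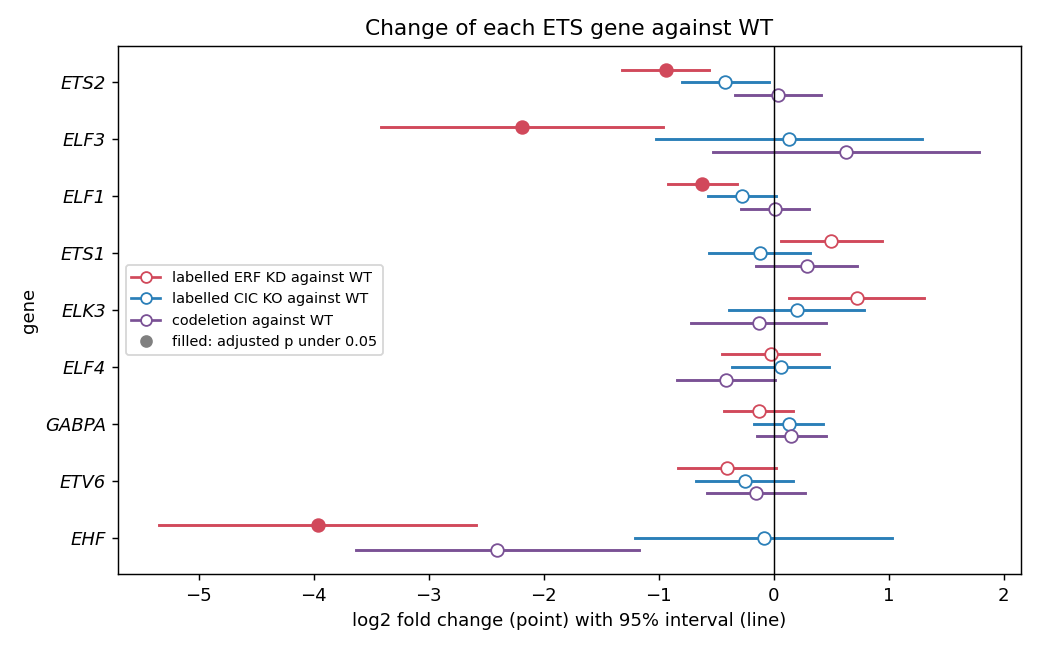
Log2 fold change against WT (x axis) of 9 ETS genes in the 3 lines, as points with 95% intervals, filled where the adjusted p was under 0.05. The filled points are *ETS2* (-0.94), *ELF3* (-2.19), *ELF1* (-0.62) and *EHF* (-3.97) in the *ERF* KD-labelled libraries.

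The lines were then compared with each other to see whether the second loss changed these genes. Between the codeletion libraries and the *ERF* KD-labelled libraries, 3 of the 9 genes were called, all higher in the codeletion libraries, against 11.7% of all genes. *ELF3* was higher by 2.82 (SE 0.545, adjusted p = 0.0135), *ETS2* by 0.98 (SE 0.166, adjusted p = 0.00751) and *ELF1* by 0.63 (SE 0.131, adjusted p = 0.0180). *EHF* was at 1.56 (SE 0.615, adjusted p = 0.149). *ELK3* was at -0.85 (SE 0.258, adjusted p = 0.0707), and with the replicate block at -0.87 (adjusted p = 0.00146), where 4 of the 9 and 20.6% of all genes were called. Without codeletion replicate A, 0 of the 9 were called by edgeR, and *ELF1* was not called without *ERF* KD replicate B, in a fit of only the groups compared, or with limma on either TPM scale.

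Between the codeletion libraries and the *CIC* KO-labelled libraries, 0 of the 9 were called by edgeR, as for 0% of all genes, with 3 of the 9 at an unadjusted p under 0.05 and 1 called by DESeq2 (0.736% of all genes). The lowest of these unadjusted p-values was that of *EHF*, at -2.32 (SE 0.535, unadjusted p = 0.00235, adjusted p = 0.318). Of all 14653 genes, 1216 had an unadjusted p under 0.05 in this comparison. Between the *ERF* KD-labelled libraries and the *CIC* KO-labelled ones, 2 of the 9 were called, both lower in the former, against 9.4% of all genes. These were *EHF* at -3.88 (SE 0.599, adjusted p = 0.00559) and *ELF3* at -2.32 (SE 0.536, adjusted p = 0.0313). The count was 4 with the replicate block, against 16.5% of all genes, which added *ETS1* (0.63, adjusted p = 0.0232) and *ELK3* (0.53, adjusted p = 0.0173). The call of *ELF3* was lost without *CIC* KO replicate A, codeletion replicate A or its replicate B and in a fit of only the groups compared, where the count was 1.

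The interaction term asks whether a loss has the same effect with and without the other. It was called for 2 of the 9 genes, both positive, against 4.15% of all genes. For *ETS2* it was 1.40 (SE 0.234, adjusted p = 0.0153) and for *ELF1* 0.91 (SE 0.184, adjusted p = 0.0326). In both genes the single-loss libraries lay below WT while the codeletion libraries overlapped it. *ELF3* had a larger term with a larger error (2.68, SE 0.731, adjusted p = 0.0943), and *ELK3* had a negative one (-1.05, SE 0.363, adjusted p = 0.179). With the replicate block both were called, *ELF3* at 2.92 (adjusted p = 0.00903) and *ELK3* at -1.08 (adjusted p = 0.00526), which made 4 of 9, against 9.55% of all genes. Without WT replicate B the count was 0 by edgeR, and it was 1 without WT replicate A, either *CIC* KO replicate or either codeletion replicate, where *ETS2* was the gene called, as on length-scaled counts and with limma on either TPM scale. Without *ERF* KD replicate A it was 3, with *ELF3* added, and without its replicate B it was 2, *ETS2* and *ELF3*, so that *ELF1* was not called. The median interaction term over the tested genes of chromosome 21 was 0.22, against 0.00 over all genes, and its part in the term of *ETS2* was not tested.

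The rest of the ETS family was read from the same fit. In the *ERF* KD-labelled libraries, 5 of the other 12 ETS genes tested were called against WT, where 10.1% of all genes were. *ETV1* (2.38, SE 0.201), *ETV5* (1.95, SE 0.197), *FLI1* (1.82, SE 0.269) and *ETV4* (1.51, SE 0.213) were higher, and *ETV7* (-2.78, SE 0.685) was lower. The rises of *ETV1*, *ETV4* and *ETV5*, which CIC is best known for silencing, thus stand under an *ERF* KD label that *ERF* mRNA contradicts. The median over the 12 was 0.26, and over the 9 genes described here it was -0.40. The genes were grouped with earlier results of these data known, so the medians are a description and not a test. Of 18 partners and cofactors of ETS factors, 3 were called in the *ERF* KD-labelled libraries, against 10.1% of all genes. Among them were *JUNB* (-1.58, SE 0.189) and *RUNX1* (-0.87, SE 0.190), both lower. With the replicate block 6 of the 18 were called, against 18.2% of all genes. JUNB, an AP-1 subunit, and RUNX1 bind DNA beside ETS factors at composite sites. In the codeletion libraries, 1 of the 12 ETS genes was called by edgeR, *ERF* itself, 4 by DESeq2 and 3 with the replicate block. Of the 12, 4 had an unadjusted p under 0.05, and the log2 fold change was positive for 10 and negative for 2. *ETV4* had 17.4 and 23.5 CPM in WT and 61.8 and 62.8 in the codeletion libraries, and *ETV5* had 21.75 and 28.09 in WT and 66.45 and 55.43. Over all genes the shares called there were 0.0682% by edgeR, 2.44% by DESeq2 and 2.49% with the block, and 1950 of 14653 had an unadjusted p under 0.05. Of the 18 partners 0 were called there by edgeR, 2 by DESeq2 and 1 with the block, with 6 at an unadjusted p under 0.05.

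Genes described as targets of these factors did not move in a single direction. Of 12 protease and matrix genes described as ETS1 or ETS2 targets, 10 were tested and 2 were called in the *ERF* KD-labelled libraries, *MMP9* lower (-3.35, SE 0.736, adjusted p = 0.0252) and *SPP1* higher (3.96, SE 0.757, adjusted p = 0.0143), and 4 were called with the replicate block. Over all genes 10.1% were called in that comparison, and 18.2% with the block. In estimated counts *MMP9* had 47 and 144 in WT and 12 and 7 in the *ERF* KD-labelled libraries. *SPP1* had 13 and 24 in WT and 185 and 399 in the *ERF* KD-labelled libraries, so that the lower levels of both rest on few reads. Of 7 targets of SRF and ternary complex factors, 1 was called there, *EGR1*, which was lower (-2.20, SE 0.407, adjusted p = 0.0123). Its level was 49.0 and 46.1 CPM in WT and 10.3 and 10.4 in those libraries. Of the 10 and of the 7, 0 were called in the codeletion libraries by edgeR and 1 and 0 by DESeq2, with 2 of each at an unadjusted p under 0.05. Over all genes these shares were 0.0682% by edgeR and 2.44% by DESeq2, and 1950 of 14653 had an unadjusted p under 0.05.

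For each gene called in some comparison, the protein-coding genes whose pattern over the 8 libraries was nearest were found by the root mean square difference in log2(CPM + 1), centred on each gene's mean, among 12598 candidates. For *EHF* these were *FYB1* (0.318) and *TSPAN1* (0.322), against a median of 1.15 over the candidates. A gene with the same level in all 8 libraries would lie at 1.13 from *EHF*. *FYB1* had a mean of 42.1 CPM in WT, 9.57 in the *ERF* KD-labelled libraries, 37.0 in the *CIC* KO-labelled ones and 15.2 in the codeletion libraries. Its likeness to *EHF* there follows from how it was picked and is no separate result. For *ELF3* they were *ALPP* (0.288) and *LLGL2* (0.296), for *ETS2* *DHX32* (0.145) and *MAP4K3* (0.155), and for *ELF1* *TMEM170A* (0.0678) and *S100A4* (0.0704). The genes share the 8 libraries with the gene they were matched to, and the distance is a description.

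A single annotated transcript held most of the TPM of several of these genes. The share of *ETS2-202* ran from 70.5% to 83.3% over the 8 libraries, that of *ELK3-201* from 82.4% to 91.9%, that of *GABPA-202* from 77.0% to 90.9% and that of *ELF1-201* from 63.3% to 74.4%. *ETS1-201* held 40.7% to 53.4%. The share of *ETV6-202* ran from 63.0% to 93.3% and differed as much between replicates of a group as between groups, since in the *CIC* KO-labelled libraries it was 80.1% and 63.0%. That of *ELF4-201* likewise was 54.1% and 75.5% in the *CIC* KO-labelled libraries. For *EHF* the share of *EHF-201* ran from 9.97% to 65.2%, and in the *ERF* KD-labelled libraries it rests on 10 and 9 counts.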

How the data were processed

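RNA-seq of 8 PNT2 libraries was analysed from the tables that the authors deposited per transcript, with estimated counts, which are not normalized, TPM, and the length and effective length of each transcript, in kallisto's format. The study's methods name RSEM, and the submitters' processing notes name hg19. The kallisto version, the annotation and the strand setting are not given in the sources used here. Of 180253 transcripts, 153245 (85.0%) were found by identifier in GENCODE release 29 (GRCh38). Estimated counts were summed over 33791 genes, which held 93.2% to 93.3% of each library's counts, and rounded to whole numbers. Reads that fit several genes were divided by the authors' program, an uncertainty that replicates do not show. A total of 14653 genes passed filterByExpr and were tested with edgeR 4.0.16 (TMM, glmQLFit and glmQLFTest, R 4.3.3) in a single fit of 4 groups. SE values are those implied by the quasi-likelihood F statistic. The biological coefficient of variation was 0.197.

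The members and gene lists were chosen with earlier results of these data known. All members are named; of each list up to 4 called genes with the largest change, genes at 0, genes that overlap a member, and for each member called in any comparison the 2 nearest genes with a mean of at least 1 CPM. Alternatives were DESeq2 1.42.0, no filter, a block for the replicate letter, counts scaled by length, limma 3.58.1 on log2(TPM + 1) and log2(TPM + 0.1), only the groups compared, and each library left out. The gap between replicates A and B (log2) correlated across genes between any 2 groups, at 0.136 to 0.335 over the 6 pairs, and the letters were therefore taken to pair the libraries for the fit with a block, which is an alternative, whereas the reported calls use no block. No source gives the meaning of a letter. With the block the biological coefficient of variation was 0.142. No exact permutation test was made, since 2 libraries against 2 give at least 0.333. Some genes of the lists are not reported here by name.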

Additional observations from a re-analysis of the deposited data

Results flagged for a closer look

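For *ETS2* the interaction term was 1.40 on the log2 scale (SE 0.234, adjusted p = 0.0153 by edgeR). Its median over the tested genes of chromosome 21, which holds *ETS2*, was 0.22. Effects of the losses cannot be told apart here from other differences between the lines. The same term for *ELF1* was 0.91 (SE 0.184, adjusted p = 0.0326), a call that was lost on length-scaled counts, with limma and without any 1 of 7 of the 8 libraries, *ERF* KD replicate A being the exception. The term of *ETS2* was not called without WT replicate B. Both rest on the labels of the single-loss libraries, which *ERF* mRNA contradicts, although the term itself is the same if those labels are exchanged. Groups of 2 libraries were too small to test for an outlying sample.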

How the results depend on the processing

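In the 4 comparisons with a reported count above 0, 36 of 59 recomputed counts of genes called stayed within 1.5 times the reported count. In the 3 with a reported count of 0, 40 of 45 were again 0, which a count at its lowest value makes no sign of stability. With each library left out in turn, the count ran from 1 to 4 in the *ERF* KD-labelled libraries against WT, from 1 to 2 between the single-loss groups, from 0 to 3 in the codeletion libraries against the *ERF* KD-labelled libraries and from 0 to 3 in the interaction. In the codeletion libraries against WT it was 1 with DESeq2, 2 without the filter and 1 with the replicate block. Over all genes, 10 were called in the reported fit, 374 with DESeq2, 760 without the filter and 365 with the block. Against the *CIC* KO-labelled libraries the count of these ETS genes was 1 with DESeq2 and 1 without the filter, where 119 and 424 of all genes were called and 0 in the reported fit. Between the single-loss groups it was 4 with DESeq2, 5 without the filter, 4 with the block and 1 with only the groups compared. Over all genes, 1843, 2364, 2424 and 829 were called in these settings, in that order, and 1377 in the reported fit. In the codeletion libraries against the *ERF* KD-labelled libraries the count of these ETS genes was 5 without the filter, where 2798 of all genes were called and 1709 in the reported fit. In the interaction it was 4 without the filter, 4 with the block, 1 on length-scaled counts and 1 with limma on either TPM scale. Over all genes, 1643 were called without the filter, 1400 with the block, 463 on length-scaled counts, 312 and 314 with limma, and 608 in the reported fit. Beyond the calls given above, the block changed the call of none of the ETS genes described here. The causes of these differences were not tested.

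Of 405 recomputed log2 fold changes against WT, 362 kept their direction and side of the threshold and 20 turned direction, all in genes that were not called. With the block *EHF* was 0.01 in the *CIC* KO-labelled libraries, and with limma *ETS2* was -0.04 in the codeletion libraries on either TPM scale. With libraries left out, *ELF4* ran from -0.25 to 0.17 in the *ERF* KD-labelled libraries. In the *CIC* KO-labelled ones, *ETS1* ran from -0.35 to 0.08, *EHF* from -0.48 to 0.46, *ELF3* from -0.30 to 0.47, *ELK3* from -0.07 to 0.53 and *ELF4* from -0.12 to 0.22. In the codeletion libraries, *ETS2* ran from -0.17 to 0.22, *ELK3* from -0.42 to 0.20, *ELF1* from -0.07 to 0.09 and *ETV6* from -0.43 to 0.08. By estimated counts in place of TPM, the mean share of the leading transcript was 68.0% for *EHF*, 91.0% for *ELF1*, 50.0% for *ELF3*, 98.3% for *ELK3*, 30.6% for *ETS1*, 92.1% for *ETS2* and 98.3% for *ETV6*. With 2 libraries a group, left-out fits assume that a lone library varies like the others, and depth limits *EHF* and *SPDEF*.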
